A study of Mus musculus with 12 samples.

Results

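Cpt1a and 8 other genes of fatty acid oxidation were followed in natural killer (NK) cells. These innate lymphocytes kill infected and malignant cells, and here they had been sorted out of mouse lymph nodes. The 9 genes are Cpt1a, Slc25a20, Cpt2, Acadvl, Acadl, Acadm, Hadha, Hadhb and Ppard, of 56748 gene IDs counted in each library. They were chosen by name, with earlier results for the same comparisons of these libraries known. Their values are therefore given as a description, without p-values. Calls on them are given only beside the shares over all genes, and nothing is read from them. RNA was sequenced in 12 libraries. There were 4 from nodes of the hematogenous model, in which diffuse large B cell lymphoma had spread through blood vessels, 4 from nodes of the lymphatic model, in which it had spread through lymphatic vessels, and 4 from tumor-free C57BL/6J mice. Nodes of both models bore tumor. The strain of the tumor-bearing mice, the lymphoma cells they received, the ages and any pooling of mice are not stated in the sources used here. Samples of a group are numbered 1 to 4 without a statement that they are separate animals. Errors and p-values therefore cover the scatter among the numbered samples, and part of it may be technical.

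Long-chain fatty acids cannot cross the inner mitochondrial membrane as coenzyme A esters. Carnitine palmitoyltransferase 1, on the outer membrane, passes the acyl group to carnitine. This is the regulated entry step, and malonyl-CoA, made by acetyl-CoA carboxylase, inhibits it. Slc25a20 exchanges acylcarnitine for carnitine across the inner membrane and Cpt2 gives the acyl group back to coenzyme A in the matrix. There the acyl-CoA dehydrogenases and the trifunctional protein, built of Hadha and Hadhb, shorten the chain. PPAR-delta, encoded by Ppard, is a nuclear receptor that binds fatty acids and, with a retinoid X receptor, activates genes of this pathway. Resting NK cells rely largely on oxidative metabolism, and activated NK cells raise glycolysis as well.

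The 5′ flanking sequences of the gene that stood apart and of the pair with a shared start region are shown first. They come from RefSeq on GRCm38.p6, in which all 9 genes had a promoter entry. Cpt1a lies on chromosome 19 and its upstream 250 bases are chr19:3323051-3323300, plus strand. Hadha and Hadhb lie head to head on chromosome 5, Hadha on the minus and Hadhb on the plus strand, and the 272 bases between their starts are chr5:30154981-30155252, printed on the plus strand.
Cpt1a, upstream 250 bases: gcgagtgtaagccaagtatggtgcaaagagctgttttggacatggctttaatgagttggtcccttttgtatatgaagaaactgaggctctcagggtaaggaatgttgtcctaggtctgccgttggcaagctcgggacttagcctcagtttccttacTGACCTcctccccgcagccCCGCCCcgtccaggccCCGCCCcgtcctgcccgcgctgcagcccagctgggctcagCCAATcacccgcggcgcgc
Hadha and Hadhb, between the starts: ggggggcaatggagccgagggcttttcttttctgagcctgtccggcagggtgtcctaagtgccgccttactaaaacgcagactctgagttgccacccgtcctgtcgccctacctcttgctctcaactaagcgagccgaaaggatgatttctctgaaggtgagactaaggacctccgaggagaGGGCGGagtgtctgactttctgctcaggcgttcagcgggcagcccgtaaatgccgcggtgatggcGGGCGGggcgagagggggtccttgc
Capitals mark the matches, on either strand, to the GC box GGGCGG (2 in each sequence), the CCAAT box (1, in Cpt1a) and the nuclear receptor half-site AGGTCA, which reads TGACCT on the strand shown (1, in Cpt1a). The DR1 element, in which a pair of AGGTCA half-sites is separated by 1 base and which PPAR dimers are known to bind, was in the upstream 250 bases of none of the 9 genes and of 0.037% of 27025 promoters of that length. The estrogen-related receptor element TCAAGGTCA, which contains the half-site, was likewise in none of the 9 and in 0.366% of all promoters. A half-site lay upstream of Cpt1a, Acadm and Acadvl and in 13.8% of all promoters. A GC box lay upstream of 7 of the 9 (all but Acadm and Acadvl) and in 32.9% of all promoters, and the upstream windows of Hadha and Hadhb largely share their bases. A CCAAT box lay upstream of Cpt1a and Ppard and in 34.5% of all promoters, and the E-box CACGTG was in none of the 9 and in 6.05% of all promoters. Upstream GC content was 49.6% to 69.6% in the 9 genes, against a median of 52.0% over all promoters. These matches describe letters and show no binding.

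The 12 libraries held 6654215 to 43494812 reads assigned to genes, 10087837 to 19625766 in the hematogenous, 17672832 to 43494812 in the lymphatic and 6654215 to 23674960 in the tumor-free group. The share of all reads that was assigned to genes was 55.4% to 65.5% in hematogenous, 67.1% to 72.1% in lymphatic and 65.7% to 70.7% in tumor-free libraries. NK genes were abundant in all libraries: the receptor gene Ncr1 was at 552 to 863 CPM (counts of a gene scaled to library size, TMM) in hematogenous, 933 to 1188 in lymphatic and 1265 to 1463 in tumor-free libraries, and Klrb1c at 629 to 990.0, 732 to 939 and 1128 to 1381 CPM in the same order. Cd79a of B cells was at 5.04 to 38.1 CPM, Cd3e of T cells at 13.0 to 126 CPM and Lyz2 of myeloid cells at 32.8 to 124 CPM over the 12 libraries. The summed level of 12 NK genes was 9746 to 11347 CPM in hematogenous, 13152 to 16014 in lymphatic and 14571 to 16236 in tumor-free libraries, and 8 of the 12 were lower in hematogenous than in tumor-free libraries by edgeR's quasi-likelihood test (called where the p adjusted by Benjamini-Hochberg was under 0.05). The summed level of 10 T cell genes was 469 to 609, 282 to 466 and 270 to 424 CPM in hematogenous, lymphatic and tumor-free libraries, with 3 of 10 called higher in the hematogenous against the tumor-free group. Against the lymphatic group 6 of the 12 NK genes were lower and 2 of the 10 T cell genes higher in the hematogenous group. Over all tested genes, 9.52% were called higher and 6.87% lower in the hematogenous against the tumor-free group. Against the lymphatic group these shares were 2.93% and 5.92%. Sums of 10 B cell genes were 90.1 to 165, 98.3 to 324 and 29.3 to 140 CPM in the same order, with 1 of 10 higher in the hematogenous against the tumor-free group, the comparison that the next counts use too. Sums of 10 myeloid genes were 718 to 1061, 1215 to 1539 and 896 to 1043 CPM, mostly Itgax, which NK cells also express, with 4 of 9 tested higher and Cd14 at 0 in the tumor-free libraries. Sums of 8 stromal genes were 116 to 139, 162 to 174 and 113 to 127 CPM, nearly all Pecam1, which leukocytes also express, with 0 of 2 tested called by edgeR (0 at unadjusted p under 0.05); Lyve1 was at 0 in the hematogenous, Pdpn in the lymphatic and Pdgfrb in the tumor-free group. Sums of 7 erythroid and platelet genes were 0.851 to 54.4, 13.2 to 38.0 and 0 to 14.4 CPM, with 2 of 5 tested higher, Pf4 and Ppbp at 0 in all libraries and Hba-a2 at 0 in tumor-free ones. The NK and T cell levels and the assigned share moved with the hematogenous group. Of the 9 tested myeloid genes, 4 were higher in it against tumor free, and 0 were higher and 1 lower against lymphatic. The part of all these in the values below was not tested. In such bulk samples, fewer cells of a type and less RNA per cell cannot be told apart.

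Cpt1a was the one of the 9 genes whose level in hematogenous NK cells was at least 2-fold that of either other group. In hematogenous libraries 1 to 4 it was at 169.9, 198.2, 161.5 and 197.0 CPM, against 67.1, 78.7, 67.9 and 67.5 CPM in lymphatic libraries and 69.2, 68.1, 113.8 and 92.7 CPM in tumor-free libraries. Every hematogenous library lay above every other library, while lymphatic and tumor-free libraries overlapped. The means were 182 ± 18.7 CPM in the hematogenous, 70.3 ± 5.62 in the lymphatic and 85.9 ± 21.8 in the tumor-free group (SD, n = 4 each). The level was 2.11-fold that of tumor-free cells (log2 fold change 1.08, SE 0.15) and 2.58-fold that of lymphatic-model cells (log2 fold change 1.37, SE 0.15). Lymphatic against tumor free, the log2 fold change was -0.29 (SE 0.15). These values rest on 1798 to 3928 Cpt1a reads per hematogenous, 1152 to 2881 per lymphatic and 460 to 2671 per tumor-free library. Leaving out any library in turn kept the log2 fold change between 0.99 and 1.25 against tumor free and between 1.33 and 1.46 against the lymphatic group. The other carnitine palmitoyltransferase 1 genes were nearly silent: Cpt1b, the muscle form, had 108 reads and Cpt1c, the brain form, 55 reads over all 12 libraries, too few to be tested.

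**Figure D1:**
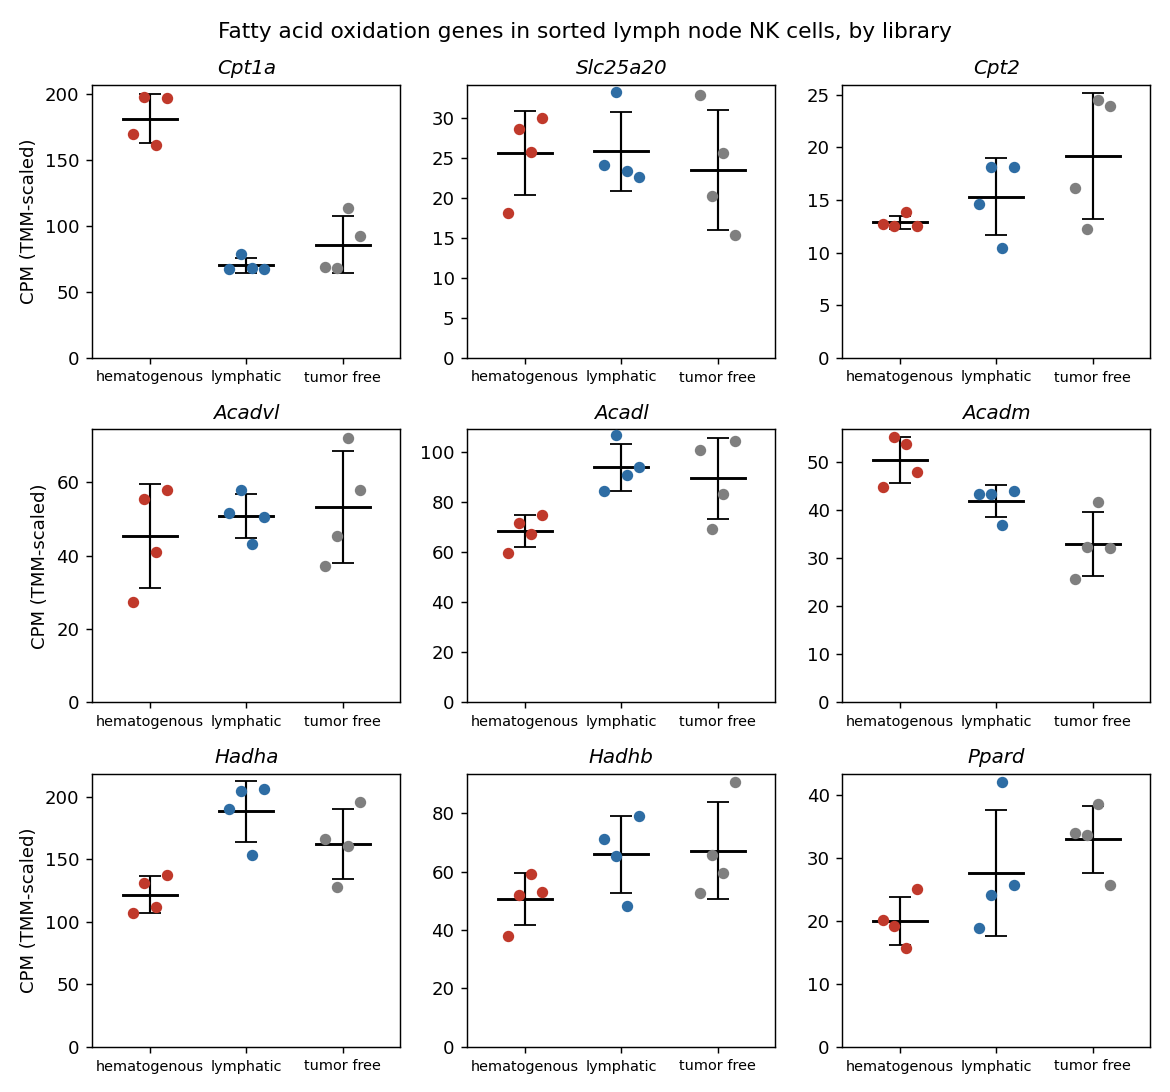
Level of each of the 9 genes in CPM (TMM-scaled, linear axes from 0) in 4 hematogenous, 4 lymphatic and 4 tumor-free libraries; points are libraries, horizontal lines group means and bars 1 SD. Cpt1a lies at 161.5 to 198.2 CPM in hematogenous libraries, above the 67.1 to 113.8 CPM of all others, whereas Slc25a20 overlaps in all 3 groups.

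The later steps of the carnitine shuttle did not follow Cpt1a. Slc25a20, the carrier, was at 18.1, 28.6, 25.7 and 30.03 CPM in hematogenous, 24.1, 33.3, 23.4 and 22.6 CPM in lymphatic and 32.9, 20.3, 25.6 and 15.4 CPM in tumor-free libraries. All 3 groups overlapped, and its log2 fold change was 0.12 (SE 0.24) against tumor free and -0.01 (SE 0.24) against the lymphatic group; these signs changed with single libraries left out. Cpt2, the matrix transferase, was at 12.7, 12.6, 13.8 and 12.5 CPM in hematogenous, 14.6, 18.1, 10.4 and 18.1 CPM in lymphatic and 16.1, 12.3, 24.5 and 23.9 CPM in tumor-free libraries. The hematogenous libraries were close together, within the range of either other group. Its log2 fold change was -0.58 (SE 0.27) against tumor free and -0.25 (SE 0.27) against the lymphatic group. Cpt2 rested on the fewest reads of the 9 genes, 83 to 663 per library.

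The acyl-CoA dehydrogenases, which take the first step of each round on chains of different length, did not share one direction. Acadm, the medium-chain enzyme, was at 44.8, 55.2, 53.7 and 48.0 CPM in hematogenous, 43.3, 43.4, 36.9 and 44.0 CPM in lymphatic and 25.7, 32.3, 41.7 and 32.1 CPM in tumor-free libraries. The hematogenous libraries stood above both other groups, narrowly so above the lymphatic one. Its log2 fold change was 0.61 (SE 0.17) against tumor free, 0.27 (SE 0.17) against lymphatic, and 0.34 (SE 0.17) in lymphatic against tumor free. Acadl, the long-chain enzyme, was at 59.7, 71.6, 67.4 and 74.7 CPM in hematogenous, 84.2, 106.7, 90.9 and 94.0 CPM in lymphatic and 100.7, 69.4, 83.3 and 104.3 CPM in tumor-free libraries. It was below every lymphatic library in all hematogenous ones and overlapped the tumor-free range, with log2 fold changes of -0.46 (SE 0.14) and -0.39 (SE 0.15). Acadvl, the very-long-chain enzyme, was at 27.4, 55.4, 40.9 and 57.9 CPM in hematogenous, 51.6, 57.9, 43.1 and 50.5 CPM in lymphatic and 37.3, 45.4, 72.2 and 57.9 CPM in tumor-free libraries. Its groups overlapped throughout, with the lowest value in hematogenous library 1, and its log2 fold changes were -0.23 (SE 0.22) against tumor free and -0.16 (SE 0.22) against lymphatic. Dvl2 overlaps Acadvl on the opposite strand and had 5589 reads over the 12 libraries against 11782 of Acadvl, so Acadvl is the least certain of these levels, as the sources used here do not give the strand setting of the counting.

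Both subunit genes of the trifunctional protein were on average lower in hematogenous libraries. Hadha, the alpha subunit with the hydratase and dehydrogenase activities, was at 106.9, 131.2, 111.7 and 137.2 CPM in hematogenous, 190.2, 204.4, 153.4 and 206.1 CPM in lymphatic and 166.5, 127.5, 160.4 and 195.4 CPM in tumor-free libraries. All hematogenous libraries lay below all lymphatic ones, and 2 of them lay above the lowest tumor-free library. The log2 fold change was -0.63 (SE 0.14) against lymphatic and -0.42 (SE 0.14) against tumor free. Hadhb, the beta subunit with the thiolase activity, was at 38.1, 52.1, 59.1 and 53.1 CPM in hematogenous, 71.3, 65.3, 48.1 and 79.0 CPM in lymphatic and 52.6, 65.7, 59.5 and 90.8 CPM in tumor-free libraries. Its groups overlapped, at log2 fold changes of -0.38 (SE 0.19) against lymphatic and -0.40 (SE 0.19) against tumor free. The ratio of Acadl to Hadha overlapped between the groups. It was 0.545 to 0.603 reads per Hadha read in hematogenous, 0.443 to 0.593 in lymphatic and 0.519 to 0.605 in tumor-free libraries.

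Ppard, which encodes the nuclear receptor, was not raised beside Cpt1a. It was at 20.2, 19.2, 15.8 and 25.1 CPM in hematogenous, 18.9, 24.1, 42.1 and 25.7 CPM in lymphatic and 34.0, 33.7, 38.6 and 25.8 CPM in tumor-free libraries. The hematogenous libraries all lay below the tumor-free ones, by a narrow margin at 25.1 against 25.8 CPM, and overlapped the lymphatic ones. The log2 fold change was -0.72 (SE 0.24) against tumor free and -0.46 (SE 0.24) against lymphatic. Ppara and Pparg, the other PPAR genes, had 19 and 80 reads over all 12 libraries and were not tested.

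**Figure D2:**
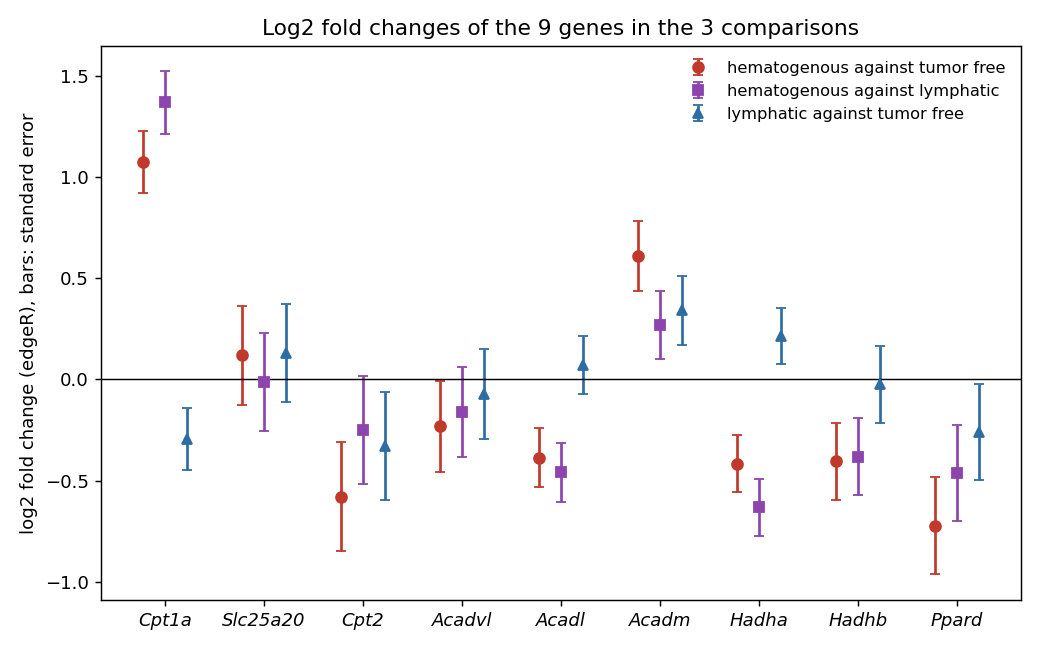
Log2 fold change of each of the 9 genes (edgeR, vertical axis) in hematogenous against tumor free, hematogenous against lymphatic and lymphatic against tumor free; bars are 1 standard error. Cpt1a stands at 1.08 and 1.37 in the comparisons of the hematogenous group, while Cpt2, Acadl, Acadvl, Hadha, Hadhb and Ppard lie below 0 in both.

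With Cpt1a higher and most of its partners lower or level in hematogenous cells, the sum of the 9 genes stayed within 1 SD between groups while its make-up differed. The 9 genes summed to 577 ± 64.9 CPM in the hematogenous, 580 ± 50.7 in the lymphatic and 567 ± 76.2 in the tumor-free group (SD, n = 4 each). The matrix enzymes Acadm, Acadl, Acadvl, Hadha and Hadhb alone summed to 337 ± 43.1, 441 ± 48.6 and 405 ± 59.2 CPM in the same order. Cpt1a made up 31.6% ± 1.98 of the 9-gene sum in hematogenous, 12.2% ± 0.864 in lymphatic and 15.04% ± 2.33 in tumor-free libraries. Set against Hadha within the same library, which removes any scaling between libraries, there were 1.59, 1.51, 1.44 and 1.44 Cpt1a reads per Hadha read in hematogenous libraries, 0.353, 0.385, 0.442 and 0.328 in lymphatic and 0.416, 0.534, 0.709 and 0.474 in tumor-free libraries. The lowest hematogenous ratio was about double the highest of the others. Hadha was itself lower in hematogenous libraries, at log2 fold changes of -0.63 against lymphatic and -0.42 against tumor free. Of the 36 pairs among the 9 genes, Cpt1a and Hadha had the lowest Pearson correlation (r = -0.67), with Acadm and Ppard at the same rounded value. Differences between the groups enter both correlations. The ratio therefore holds both changes and does not measure Cpt1a alone.

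Per kilobase of exon (union exon lengths from GENCODE M21), the order of levels also shifted. The union takes in every annotated exon of a gene, 8730 bases for Hadha, 6595 for Hadhb and 2005 for Acadl. The order between genes and their shares therefore depend on the annotation, and the transcripts in use were not determined. Acadl was the most abundant of the 9 in all 3 groups, at 34.1 ± 3.23 CPM per kb in hematogenous, 46.9 ± 4.69 in lymphatic and 44.6 ± 8.08 in tumor-free libraries. Cpt1a came next in hematogenous libraries at 23.8 ± 2.45 CPM per kb, ahead of Acadvl at 16.9 ± 5.27 and Hadha at 13.9 ± 1.68. In lymphatic libraries Cpt1a, at 9.20 ± 0.735 CPM per kb, stood below Hadha at 21.6 ± 2.80 and Acadvl at 18.9 ± 2.26, close to Acadm at 10.7 ± 0.855 and Hadhb at 10.00 ± 1.99. In tumor-free libraries it was at 11.2 ± 2.85 CPM per kb, beside Hadhb at 10.2 ± 2.52 and below Acadvl at 19.8 ± 5.67 and Hadha at 18.6 ± 3.19. Ppard was the least abundant, at 2.67 ± 0.509, 3.69 ± 1.33 and 4.39 ± 0.708 CPM per kb in hematogenous, lymphatic and tumor-free libraries. On this length scale Cpt1a made up 19.5% ± 1.54, 6.95% ± 0.406 and 8.58% ± 1.36 of the 9 genes in that order.

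**Figure D3:**
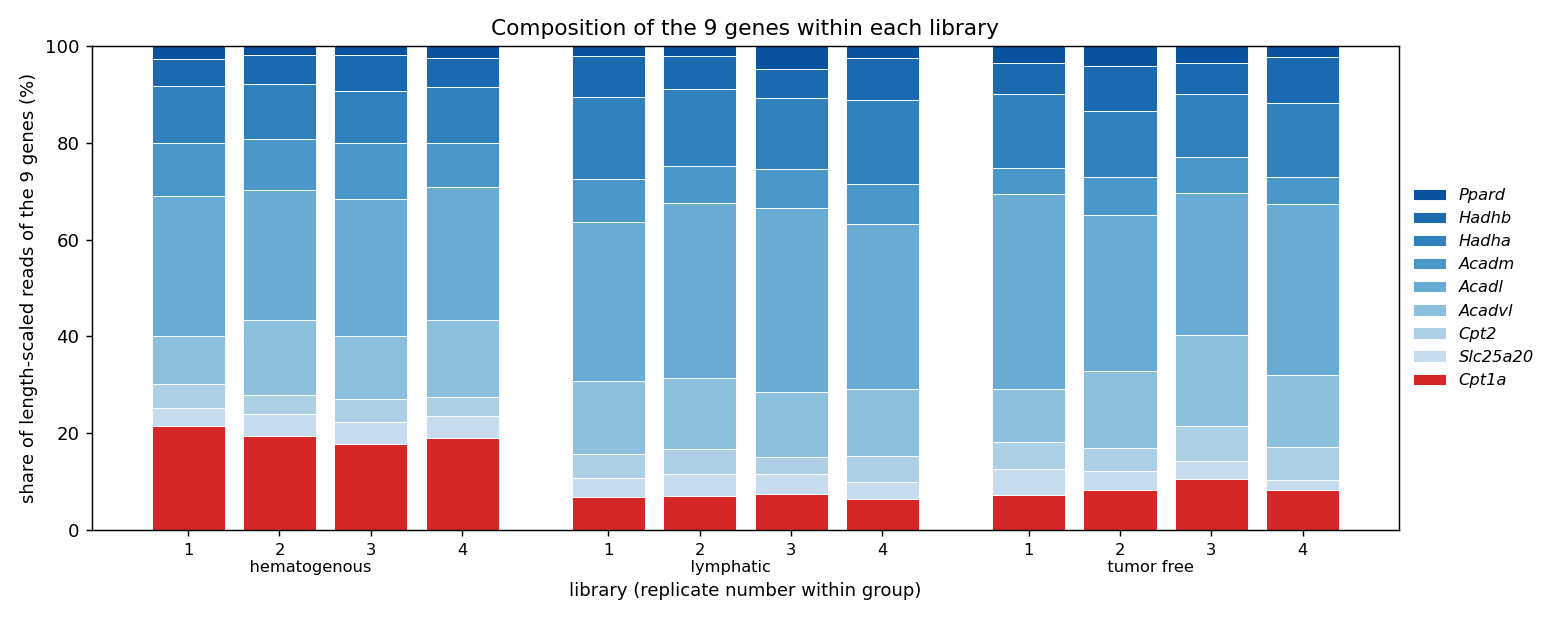
Share of each of the 9 genes in their summed level per kilobase of exon (percent, vertical axis) in each of the 12 libraries, with Cpt1a in red at the base and the other genes in blue. Cpt1a averages 19.5% in hematogenous, 6.95% in lymphatic and 8.58% in tumor-free libraries, and Acadl has the largest share in every library. The shares depend on the annotated union exon lengths.

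Among all 16016 genes tested with edgeR, 9.52% were called higher and 6.87% lower in hematogenous against tumor-free cells, and Cpt1a and Acadm fell in the first class and Hadha and Ppard in the second. Hematogenous against lymphatic, 2.93% of all genes were called higher, with Cpt1a, and 5.92% lower, with Hadha. Lymphatic against tumor free, 2.32% were called higher and 0.418% lower, and none of the 9 was called by edgeR (0 at unadjusted p under 0.05, and 0 with DESeq2 and with voom). Since the 9 genes were selected on these contrasts, nothing is read from these counts or from which genes they hold. The median log2 fold change of the 9 was -0.39, -0.25 and -0.02 in these comparisons, beside 0.08, -0.01 and 0.08 over all tested genes. The comparisons share libraries. As limits of these counts, the call of Acadm was lost without hematogenous library 3 (0.58), and that of Hadha against lymphatic was lost without the same library (-0.55). Hadha against tumor free was lost in 14 and Ppard in 10 of the 23 alternatives, at log2 fold changes of -0.45 to -0.31 and -0.75 to -0.62. The libraries whose removal ended them were tumor-free 1 and 3 and hematogenous 1, 2 and 3 for both genes, tumor-free 4 and lymphatic 1 for Hadha and tumor-free 2 for Ppard. Library size alone, voom and equal depth ended both, upper quartile scaling, no filter, the fit of 2 groups and no robust estimation that of Hadha, and the replicate block that of Ppard.

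The wider pathway was read from 8 lists of 101 further genes, 83 of which were tested. In hematogenous against tumor-free cells 8 rose and 8 fell by edgeR (median log2 fold change -0.10), against lymphatic cells 3 rose and 5 fell (median -0.11), and in lymphatic against tumor-free cells 2 rose and 1 fell (median 0.05). These shares are near the 9.52% and 6.87%, the 2.93% and 5.92%, and the 2.32% and 0.418% of all tested genes. The adjusted p-values below are from edgeR's quasi-likelihood test with Benjamini-Hochberg adjustment over all tested genes, and log2 fold changes carry their SE in brackets.

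Among genes of fatty acid uptake and activation, Acsl1 rose in hematogenous cells and Slc27a4 fell against both other groups, and Acsl5 fell against the lymphatic group. Acsl1, an acyl-CoA synthetase that feeds Cpt1a, was at 28.3, 15.3, 19.3 and 12.7 CPM in hematogenous, 9.0, 9.2, 8.1 and 9.5 CPM in lymphatic and 7.8, 8.4, 5.0 and 8.2 CPM in tumor-free libraries. Every hematogenous library exceeded every other one, at log2 fold changes of 1.37 (0.31) against tumor free (edgeR adjusted p = 0.00563) and 1.07 (0.30) against lymphatic (edgeR adjusted p = 0.0311). Acsl5, another synthetase, averaged 149 ± 13.5 CPM in hematogenous, 201 ± 30.5 in lymphatic and 178 ± 26.3 in tumor-free libraries, a fall of -0.43 (0.13) in hematogenous against lymphatic cells (edgeR adjusted p = 0.0483). Slc27a4, a fatty acid transport protein, averaged 26.4 ± 3.07 CPM in hematogenous, 42.0 ± 5.86 in lymphatic and 43.2 ± 10.3 in tumor-free libraries, a fall of -0.71 (0.19) against tumor free and -0.66 (0.19) against lymphatic (edgeR adjusted p = 0.0157 and 0.0333). In this list 1 rose and 1 fell of 10 tested against tumor free, and 1 rose and 2 fell against lymphatic. Over all tested genes 9.52% rose and 6.87% fell against tumor free, and 2.93% and 5.92% against lymphatic. The calls against lymphatic depended on single libraries: that of Acsl1 was lost without hematogenous 1 or 3 or any lymphatic library (0.86 to 1.10), that of Slc27a4 without hematogenous 1, 3 or 4 or lymphatic 2, 3 or 4, and that of Acsl5 without any library but lymphatic 3 (-0.47 to -0.32). The call of Slc27a4 against lymphatic was also lost with the 3 other scalings (-0.60 to -0.56). That of Acsl5 was lost in 19 of the 23 alternatives, among them the 3 other scalings, both other filters and equal depth. The call of Slc27a4 against tumor free was lost without tumor-free 3 (-0.58). Zdhhc6 overlaps Acsl5 on the opposite strand, with 9170 reads against 41661 of Acsl5.

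Of the 3 tested genes of the carnitine list, Slc22a5, the plasma membrane carnitine transporter, averaged 26.4, 17.7 and 22.1 CPM in hematogenous, lymphatic and tumor-free libraries. Crat, which acts on short acyl groups, averaged 15.03, 18.2 and 20.7 CPM, and Crot, the peroxisomal enzyme, 111, 96.7 and 96.6 CPM in that order. Their log2 fold changes lay between -0.46 and 0.26 against tumor free and between -0.27 and 0.58 against lymphatic. Of 19 further mitochondrial beta oxidation genes, 14 had a log2 fold change below 0 against tumor free and 14 against lymphatic, beside 7226 and 8081 of all 16016 tested genes. Of the 19, 1 rose and 2 fell against tumor free, beside 9.52% and 6.87% of all tested genes. Ech1, an auxiliary isomerase for unsaturated chains, averaged 45.8 ± 13.2 CPM in hematogenous, 73.4 ± 10.5 in lymphatic and 78.4 ± 10.1 in tumor-free libraries, and fell by 0.77 (0.18) against tumor free and by 0.68 (0.18) against lymphatic (edgeR adjusted p = 0.00742 and 0.0243). Acads, the short-chain dehydrogenase, averaged 20.3 ± 6.47 CPM in hematogenous, 25.2 ± 5.48 in lymphatic and 39.7 ± 6.27 in tumor-free libraries. It fell by 0.96 (0.24) in hematogenous against tumor-free cells (edgeR adjusted p = 0.0105), beside log2 fold changes of -0.66 (0.24) in lymphatic against tumor-free and -0.31 (0.24) in hematogenous against lymphatic cells, neither of them called. Etfdh, which hands the electrons of the dehydrogenases to ubiquinone, averaged 54.3 ± 4.93 CPM in hematogenous, 48.8 ± 7.62 in lymphatic and 36.4 ± 4.83 in tumor-free libraries. It rose by 0.58 (0.16) in hematogenous against tumor-free cells (edgeR adjusted p = 0.0203), beside 0.43 (0.16) in lymphatic against tumor-free cells, which was not called. The call of Ech1 against lymphatic was lost without lymphatic 1, 2 or 4 or hematogenous 1, 3 or 4, and with library size alone (-0.66 to -0.52), and that of Etfdh without lymphatic 4 or hematogenous 3 (0.52 and 0.55). The model 4930579G24Rik overlaps Etfdh on the opposite strand, with 1186 reads against 10826 of Etfdh.

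Of 9 tested genes that act on malonyl-CoA or belong to the kinase AMPK, 1 rose in hematogenous against tumor-free cells, beside 9.52% of all tested genes. Acaca, the cytosolic carboxylase, averaged 53.3, 54.1 and 48.0 CPM in hematogenous, lymphatic and tumor-free libraries, Mlycd, the decarboxylase, 26.0, 29.5 and 29.8 CPM, and Acacb, the mitochondrial form, 0.619, 0.966 and 0.170 CPM. The called gene was Prkaa1, a catalytic subunit of AMPK, which inactivates the carboxylases. It averaged 74.3 ± 4.71 CPM in hematogenous, 75.8 ± 4.05 in lymphatic and 55.8 ± 7.48 in tumor-free libraries, a rise of 0.41 (0.14) in hematogenous cells against tumor free (edgeR adjusted p = 0.0439) beside 0.44 (0.14) in lymphatic cells (edgeR adjusted p = 0.0964). The call was lost in 13 of the 23 alternatives (0.34 to 0.44): without tumor-free 1 or 2, lymphatic 1, 2 or 4, or any hematogenous library, without a filter on low counts, with voom, in the fit of 2 groups and with the replicate block.

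Of 13 tested genes for PPAR partners and cofactors, 3 rose and 1 fell in hematogenous against tumor-free cells. Over all tested genes the shares were 9.52% and 6.87%. Nrip1, a corepressor of oxidative genes, averaged 78.2 ± 14.3 CPM in hematogenous, 84.7 ± 2.81 in lymphatic and 37.5 ± 18.7 in tumor-free libraries, a rise of 1.05 (0.25) in hematogenous and 1.16 (0.25) in lymphatic cells against tumor free (edgeR adjusted p = 0.00782 and 0.0123). Ncoa1, a coactivator, averaged 97.7 ± 13.8 CPM in hematogenous, 72.5 ± 8.16 in lymphatic and 56.7 ± 13.5 in tumor-free libraries, a rise of 0.78 (0.17) against tumor free (edgeR adjusted p = 0.00393). Ncoa2, its relative, averaged 240.4 ± 13.6 CPM in hematogenous, 176 ± 26.2 in lymphatic and 161 ± 29.5 in tumor-free libraries, a rise of 0.58 (0.14) against tumor free and 0.45 (0.14) against lymphatic (edgeR adjusted p = 0.00849 and 0.0467). Its call against lymphatic was lost without tumor-free 3, any lymphatic library or hematogenous 1, 2 or 3, at equal depth and without robust estimation (0.34 to 0.49). Rxra, the partner of PPAR-delta, lay outside the rule for named genes and was named after its values were seen; it averaged 48.6 ± 14.7 CPM in hematogenous, 60.5 ± 9.17 in lymphatic and 79.4 ± 2.48 in tumor-free libraries, a fall of -0.71 (0.19) in hematogenous against tumor-free cells (edgeR adjusted p = 0.0140). Its call was not refitted under the alternatives.

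Reported PPAR target genes outside the 9 did not share one direction. In hematogenous against tumor-free cells, 2 of 6 tested lay above 0 and 4 below (median log2 fold change -0.61). Of these, 1 was called higher and 1 lower, beside 9.52% and 6.87% of all tested genes. Against lymphatic, 2 lay above and 4 below 0 (median -0.26). There 1 was called higher and 1 lower, beside 2.93% and 5.92% of all tested genes. Txnip, which binds thioredoxin and restrains glucose uptake, was at 1031, 2479, 2723 and 3032 CPM in hematogenous, 593, 512, 533 and 638 CPM in lymphatic and 580, 556, 595 and 748 CPM in tumor-free libraries. Every hematogenous library exceeded all others, at log2 fold changes of 1.90 (0.23) against tumor free and 2.03 (0.23) against lymphatic (edgeR adjusted p = 6.4e-05 and 6.3e-05). Ucp2, a carrier of the inner mitochondrial membrane, was at 314, 351, 321 and 358 CPM in hematogenous, 459, 493, 494 and 442 CPM in lymphatic and 573, 658, 675 and 590 CPM in tumor-free libraries. The 3 groups did not overlap. Ucp2 fell by 0.89 (0.11) in hematogenous and 0.40 (0.11) in lymphatic against tumor free (edgeR adjusted p = 6.4e-05 and 0.0446), and by 0.49 (0.11) in hematogenous against lymphatic (edgeR adjusted p = 0.00755). Its lymphatic call was lost on leaving out tumor-free 2 or 3, or lymphatic 1, 3 or 4 (-0.41 to -0.35). Of this list 6 of 12 genes were tested; Pdk4, a common PPAR target of liver and muscle, had 45 reads in all. Dnajb13 overlaps Ucp2 on the opposite strand, with 2084 reads against 105843 of Ucp2.

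Of 10 tested storage genes 1 rose and 1 fell in hematogenous against tumor-free cells, and of 13 tested peroxisomal genes 2 fell. Over all tested genes 9.52% rose and 6.87% fell. Dgat1, which makes triglyceride, averaged 70.2 ± 21.5 CPM in hematogenous, 48.0 ± 5.03 in lymphatic and 25.2 ± 5.51 in tumor-free libraries, a rise of 1.47 (0.21) in hematogenous and 0.93 (0.21) in lymphatic cells against tumor free (edgeR adjusted p = 0.000172 and 0.0158). G0s2, an inhibitor of the triglyceride lipase Pnpla2, averaged 1.83 ± 0.892 CPM in hematogenous, 3.82 ± 1.93 in lymphatic and 6.43 ± 1.43 in tumor-free libraries, a fall of -1.80 (0.60) in hematogenous against tumor-free cells (edgeR adjusted p = 0.0467). Scp2, a peroxisomal thiolase and lipid carrier, averaged 70.5 ± 13.2 CPM in hematogenous, 104 ± 17.1 in lymphatic and 104 ± 13.1 in tumor-free libraries, a fall of -0.55 (0.16) and -0.56 (0.16) against tumor free and lymphatic (edgeR adjusted p = 0.0229 and 0.0333). Calls against tumor free were lost for G0s2 without any library but tumor-free 1 and lymphatic 2 (-2.02 to -1.53) and for Scp2 without tumor-free 2 or 4 or hematogenous 1 (-0.51 to -0.43). The lymphatic call of Dgat1 was lost on leaving out tumor-free 1, tumor-free 2, lymphatic 2 or lymphatic 4 (0.78 to 0.88), and that of Scp2 against lymphatic without tumor-free 1, 2 or 4, lymphatic 1, 2 or 4 or hematogenous 1, 3 or 4 (-0.57 to -0.39). Other settings that ended calls were the 3 other scalings for Scp2 against lymphatic, voom for Scp2 against tumor free and for Dgat1 in the lymphatic group, and no filter, voom, the fit of 2 groups, the replicate block and equal depth for G0s2.

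**Figure D4:**
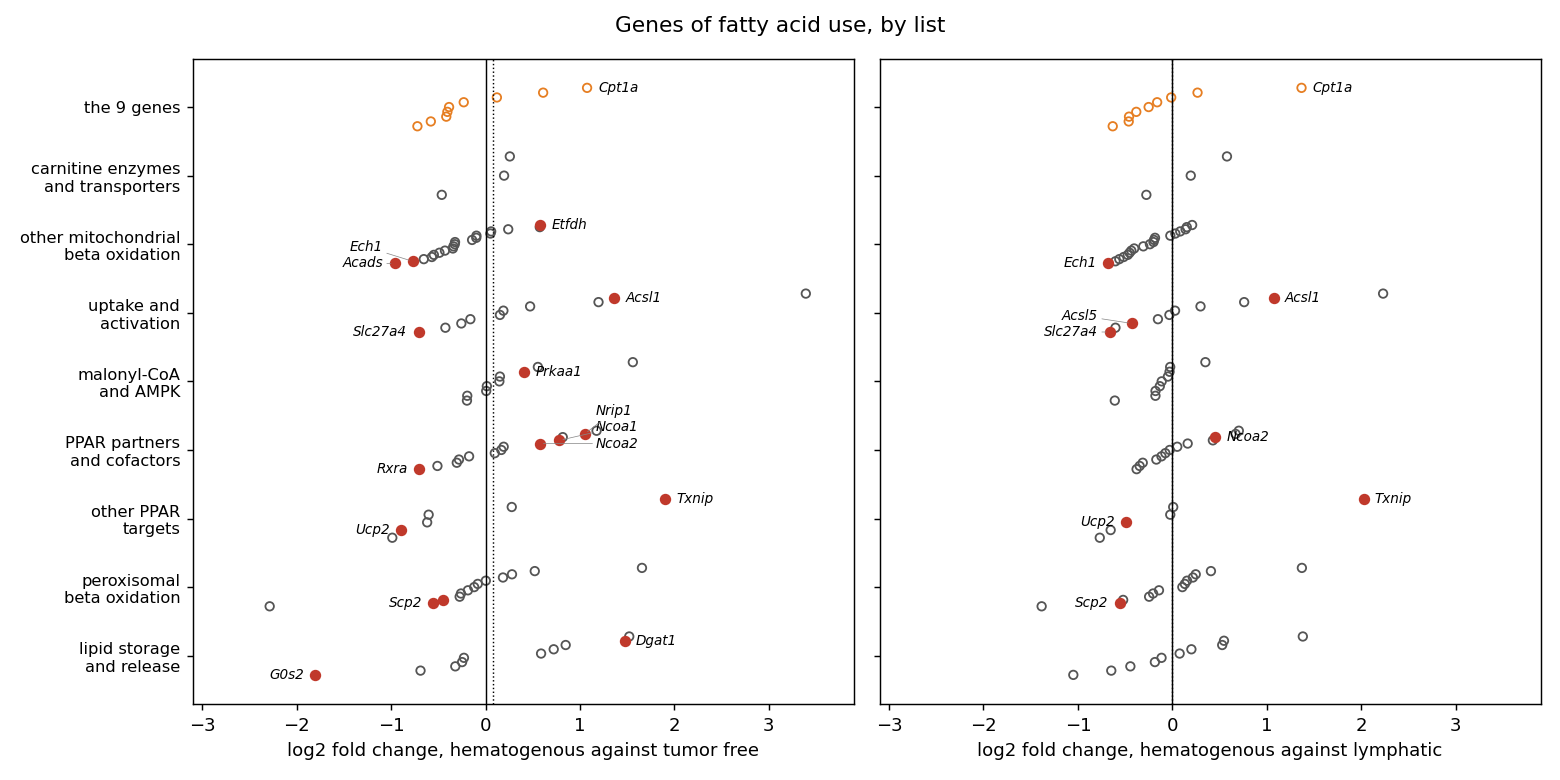
Log2 fold change (horizontal axis) of the 9 genes (orange) and of the tested genes of 8 lists of fatty acid use, in hematogenous against tumor free (left) and hematogenous against lymphatic (right). Filled red points are called by edgeR at an adjusted p under 0.05, open points are not, the 9 genes are drawn without calls, and the dotted line is the median of all tested genes; 8 rose and 8 fell on the left, 3 rose and 5 fell on the right.

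Across the 12 libraries, the genes whose log2 CPM was most like that of Cpt1a (Pearson correlation, among named genes of at least 5 CPM on average) were Gimap3, an immune-associated GTPase (r = 0.92), Cbx7, a Polycomb subunit (r = 0.91), the zinc finger gene Zfp652 (r = 0.90), Mprip, which binds myosin phosphatase (r = 0.90), Phlpp1, a phosphatase that acts on Akt (r = 0.90), and Plcg1, phospholipase C gamma (r = 0.89). Gimap3 averaged 1487 CPM in hematogenous, 978 in lymphatic and 917 in tumor-free libraries, and Plcg1 82.9, 20.7 and 17.7 CPM in that order. The most opposite were Arl5a, a small GTPase (r = -0.91), Prr13 (r = -0.91) and Sept7, a septin (r = -0.90); Arl5a averaged 87.7 CPM in hematogenous, 141 in lymphatic and 144 in tumor-free libraries. These correlations describe 12 points that share 3 groups, and the distance of the hematogenous group from the others sets most of their size. Apobec3 overlaps Cbx7 on the opposite strand with 135379 reads against 55063 of Cbx7, so the level of Cbx7 is uncertain.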

How the data were processed

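NK cells were sorted from lymph node suspensions and poly(A) RNA was made into stranded single-end libraries, per the labels' protocols. The authors deposited raw counts of reads for each gene in 12 files. FastQC 0.11.9, Trimmomatic 0.39, HISAT2 2.1.0, HTSeq 2.0.2 and GRCm39 were used, per the submitters' processing notes; the sources used here give no annotation release or strand setting. The 5 summary lines per file were left out. Symbols matched 52073 of 56748 IDs (91.8%), which held 99.5% of counts. Groups and replicate numbers came from the titles.

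Counts were tested with edgeR 4.0.16 in R 4.3.3 (robust quasi-likelihood F test, TMM scaling, default expression filter by group) on all 12 libraries, with group as the factor and 9 residual degrees of freedom. A gene was called where its p, adjusted by Benjamini-Hochberg over 16016 genes, was under 0.05. The SE is the absolute log2 fold change over the square root of F. CPM are TMM-scaled. The 9 genes and all lists were chosen with earlier results of these data known. Named genes were the 9, up to 3 called genes of smallest adjusted p per list and comparison, the 6 most and 3 least like Cpt1a, and sort markers; not every gene this rule took is reported here. Exon lengths came from GENCODE M21, an older build, so none of its coordinates are printed. Same-numbered samples did not deviate together, so the replicate block was an alternative. Others covered scaling, filters, DESeq2 1.42.0, voom in limma 3.58.1, equal depth, fits of 2 groups, estimation without robustness and leaving out each library. The test was tested on simulated counts with known changes. In lymphatic and hematogenous against tumor free and hematogenous against lymphatic, it recovered 43%, 37% and 35% of 2-fold changes. Of 4-fold changes it recovered 66%, 58% and 62%, and 8 of 117, 0 of 95 and 3 of 100 calls were false. These rates hold for 200 changed genes among 16016, drawn at random from all levels, against 439, 2625 and 1417 called in the data. They do not give the share recovered among the genes named here. A gene that was not called may therefore still differ.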

Additional observations from a re-analysis of the deposited data

Results flagged for a closer look

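In 10 of the 75 groups of 4 libraries looked at, 1 library lay far from the others; chance flags about 1 in 20 groups. Among the 9 genes, Cpt1a was at 78.7 CPM in lymphatic library 2, against 67.1 to 67.9 in the other lymphatic libraries, and Slc25a20 was at 33.3 CPM in the same library, against 22.6 to 24.1. Cpt2 was at 13.8 CPM in hematogenous library 3, against 12.5 to 12.7, and Acadm at 36.9 CPM in lymphatic library 3, against 43.3 to 44.0. Lymphatic library 2 also stood apart for Ncoa2 at 137 CPM (others 185 to 193) and Acsl5 at 246 CPM (others 183 to 188). Lymphatic library 3 stood apart for Ech1 at 57.6 CPM (others 77.9 to 79.5) and Scp2 at 78.4 CPM (others 109 to 115). Nrip1 was at 56.8 CPM in hematogenous library 1 (others 83.7 to 87.2) and Etfdh at 47.0 CPM in hematogenous library 4 (others 55.8 to 57.3).

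In 8 of the 83 tested genes of the wider pathway, the hematogenous effect against tumor free was called different from the lymphatic one. Over all genes 1417 of 16016 were. The test was edgeR's contrast of both models, whose adjusted p-values stand in the report. Many of these calls were not stable. Those of Acsl5, Scp2, Ncoa2, Slc27a4, Acsl1 and Ech1 were lost in 19, 12, 10, 9, 7 and 7 of the 23 alternatives. The hematogenous minus lymphatic difference, in log2, was 2.03 for Txnip, 1.07 for Acsl1, 0.45 for Ncoa2, -0.43 for Acsl5, -0.49 for Ucp2, -0.56 for Scp2, -0.66 for Slc27a4 and -0.68 for Ech1.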

How the results depend on the processing

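The 9 genes and the pathway genes named by the rule were refitted under 23 alternatives, and none of their called fold changes turned its direction. The log2 fold change of Cpt1a ran from 0.99 to 1.25 against tumor free and from 1.33 to 1.47 against lymphatic. Of the 9 genes, 2 in place of 4 were called in hematogenous against tumor free with library size alone, with voom and at equal depth, and 4 in place of 2 with voom against lymphatic. Over all tested genes these 3 settings called 2670 of 16016, 1981 of 16016 and 2538 of 13606 against tumor free, in place of 2625 of 16016. The 9 genes were selected on these contrasts, so nothing is read from their counts. Of the pathway genes, 5 in place of 8 changed against lymphatic with DESeq2 size factors, with upper quartile and with library size alone, and 15 with voom. Over all genes, DESeq2 called 729 in place of 439 in lymphatic against tumor free and voom 2923 in place of 1417 in hematogenous against lymphatic. Leaving out 1 library at a time gave 255 to 634, 1760 to 3202 and 620 to 1572 genes in lymphatic and hematogenous against tumor free and hematogenous against lymphatic (main counts 439, 2625 and 1417). It gave 1 to 4 of the 9 genes against tumor free and 1 to 3 against lymphatic for the hematogenous group, and 1 to 3, 12 to 19 and 2 to 7 pathway genes in the same 3 comparisons (main counts 3, 16 and 8). The causes were not tested.

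The share of calls that were higher was 84.7% in lymphatic against tumor free, and 75.5%, 75.0% and 73.2% with DESeq2 size factors, upper quartile and library size alone. For hematogenous against lymphatic it was 33.1%, and 47.4%, 52.3% and 55.8%; the median of all genes there was -0.01 and, with library size alone, 0.10. With the replicate block 362, 2518 and 1439 genes changed, and calls were lost for Ppard, Prkaa1 and G0s2 against tumor free, Acsl1 and Acsl5 against lymphatic and Ucp2 in the lymphatic group; deviations of same-numbered samples correlated at -0.07 to 0.06, so the numbers give no pairing. Depth was lowest in tumor-free libraries 1, 2 and 4, where Cpt2 rested on 83 to 166 reads.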
